A study of Mus musculus with 48 samples.

Results

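RNA was compared between 2NG- and 3NG- cells of MKOS reprogramming, the populations that a gain of surface ICAM1 separates. The libraries were chosen by their labels, which put 3 libraries in each population, so that the comparison holds 6 of the 48 libraries of the series. Both populations were descended from mouse embryonic fibroblasts (MEFs) that carry a doxycycline-inducible cassette of Myc, Klf4, Oct4, and Sox2 with an mOrange reporter, beside a CAG promoter-driven rtTA, in the third intron of Sp3. Both were E-CAD+ and negative for a GFP reporter of Nanog, and had lost most surface CD44. 2NG- cells were CD44low ICAM1low, and 3NG- cells were CD44low ICAM1high. The study sorted these populations on day 10 of culture with doxycycline and vitamin C, though the labels allow for 10 or 15 days. The MEFs came from chimeric embryos made with the TNG MKOS ESC line, which holds the Nanog-GFP reporter, and were mixed with wild-type MEFs for reprogramming. All 6 libraries share these alleles and this treatment. MKOS MEFs and the TNG MKOS ESC line (2 libraries each), Nanog-GFP+ cells of the ICAM1high gate (3NG+, 3 libraries), and established MKOS iPSCs kept without doxycycline (2 libraries) serve as points of reference. E-CAD+ 2NG- and 3NG- cells of OKMS reprogramming (3 libraries each) are compared with the MKOS cells in later paragraphs. Their cassette, at the same locus, holds the factors in another order with a short form of Klf4. The labels do not say whether the 3 libraries of a population came from separate cultures. The p-values of the gene tests rest on the spread between libraries within groups, estimated over all 48 libraries of the series. This spread may be technical.

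ICAM1 is an adhesion molecule of the immunoglobulin superfamily that binds leukocyte integrins and is present on both fibroblasts and pluripotent cells. During MKOS reprogramming, cells pass through a mesenchymal-to-epithelial transition, lower CD44, and regain ICAM1. The study saw the Nanog-GFP reporter come on along with this regain, and in some MKOS cells before it. Naive pluripotency is held by a network of transcription factors around Oct4, Sox2, and Nanog, and many genes that only germ cells use in the adult are also transcribed in pluripotent cells.

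The 6 libraries held 6353439 to 9802465 reads on transcripts, and 13665 to 14484 transcripts had at least 1 read in a library. Levels are given as CPM (counts per 1000000 reads on transcripts), with the libraries in the order of replicates 1, 2, and 3. A count of 3 reads stood for 0.306 to 0.472 CPM. STRT, the method used, reads the 5′ ends of transcripts, so a CPM counts starts and does not grow with transcript length. Mitochondrial genes took 9.51% to 9.86% of these reads in 2NG- cells and 6.16% to 8.09% in 3NG- cells, ranges that did not overlap, and their part in the results below was not tested.

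Of the sorting markers, Icam1 was the one whose RNA libraries lay apart between the gates. Icam1 had 3.98, 0 and 4.34 CPM in 2NG- cells and 12.4, 17.2 and 20.4 CPM in 3NG- cells, and each 3NG- library lay above each 2NG- library. The 2NG- values rested on few reads, with 39, 0, and 32 of them. The log2 fold change of 3NG- over 2NG- was 2.45 ± 0.61 (SE, n = 3 and 3), and it did not pass the threshold, a false discovery rate (FDR) of 0.05 by edgeR's quasi-likelihood test with Benjamini-Hochberg adjustment over all genes (FDR 0.0565). With the replicate number as a block, which these libraries allow, it was 2.58 and passed (FDR 0.0207). The level in 3NG- cells was above that of 2NG- cells and below those of MKOS MEFs and TNG MKOS ESCs. These had 33.4 and 28.4 CPM on average (2 libraries each). Wild-type MEFs of the series had less, 5.24 CPM on average, which was below the 3NG- mean of 16.7 CPM. In Nanog-GFP+ 3NG+ cells, which were sorted from the same ICAM1high gate, the libraries spread over 12.2, 1.38 and 11.6 CPM.

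The promoter of Icam1 is shown because its gene product defines the gate. The bases are from RefSeq (GRCm38.p6, chr9:21015690-21015939, plus strand, the 250 bases before the transcription start, 5′ to 3′), and the capitals mark the only match among 6 short motifs searched on both strands.
Icam1: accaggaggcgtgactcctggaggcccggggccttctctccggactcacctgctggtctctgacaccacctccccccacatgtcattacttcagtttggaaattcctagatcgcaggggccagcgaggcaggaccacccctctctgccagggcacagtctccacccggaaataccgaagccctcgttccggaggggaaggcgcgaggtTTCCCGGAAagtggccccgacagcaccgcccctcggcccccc
The match starts 42 bases before the transcription start and fits TTCCNGGAA, the palindrome that STAT factors bind. These letters were found in 0.914% of the 27025 gene promoters of the table. The other letters searched were a narrow NF-kB string (GGG, any 2 bases, then TTTCC, which leaves out many forms of that site), TGANTCA for AP-1, ATTTGCAT for octamer factors, GGGGCGGGG for a GC box, and TATAAA for a TATA box. A match describes letters and not binding, and no match says only that these letters are not in this window. A promoter was matched for 43 of the 55 genes that rose, which is under 80% of them, so no base composition or motif share of the group is given.

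For the other sorting markers, the libraries of the populations overlapped, and none was called. Cd44, which encodes the hyaluronan receptor, had 41.1, 43.8 and 28.3 CPM in 2NG- cells and 30.9, 22.0 and 21.1 CPM in 3NG- cells. Both populations were below the 113 CPM of MKOS MEFs and above the 0.438 CPM of the ESCs. Cdh1, which encodes E-cadherin, had 158, 161 and 156 CPM against 116, 178 and 147 CPM, close to the 167 CPM of ESCs, so the E-CAD+ label was met by RNA in all 6 libraries. Nanog RNA was detected in both GFP-negative populations, with 16.2, 18.5 and 45.8 CPM in 2NG- cells and 22.3, 36.4 and 75.7 CPM in 3NG- cells (log2 fold change 0.64 ± 0.46, FDR 0.871). The highest value in each population was that of replicate 3, and the ranges overlapped.

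Across the 15630 genes tested, 61 differed between 3NG- and 2NG- cells, 0.39% of them. They are named called genes here. 55 rose (0.352%) and 6 fell (0.0384%). At an unadjusted p under 0.05 there were 1158 genes (7.41%), 790 higher and 368 lower. A positive log2 fold change was found for 7765 genes and a negative one for 7336. These shares over all genes are the base for the counts of list members below. The CPM of the 3 libraries of 1 population lay wholly above those of the other for 2612 genes (16.7%), with 3NG- above for 1637 (10.5%) and below for 975 (6.24%). All 61 called genes were among them. With the replicate block, 91 genes were called (0.582%), 84 higher (0.537%) and 7 lower (0.0448%), and these held all 61. A fit on the 6 libraries alone called 122 genes, with 63 higher and 59 lower, and 41 of the 61 were among them. Why the split between the directions changed was not tested. 7 genes, Rpl10l, Rpl39l, Gsta4, Rbmxl2, Hsf2bp, Zfp534, and EU599041, were called whichever of the 6 libraries was left out, while the number called fell to between 11 and 53, with the fewest without replicate 1 (11) or replicate 2 (14) of 2NG- cells.

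**Figure D1:**
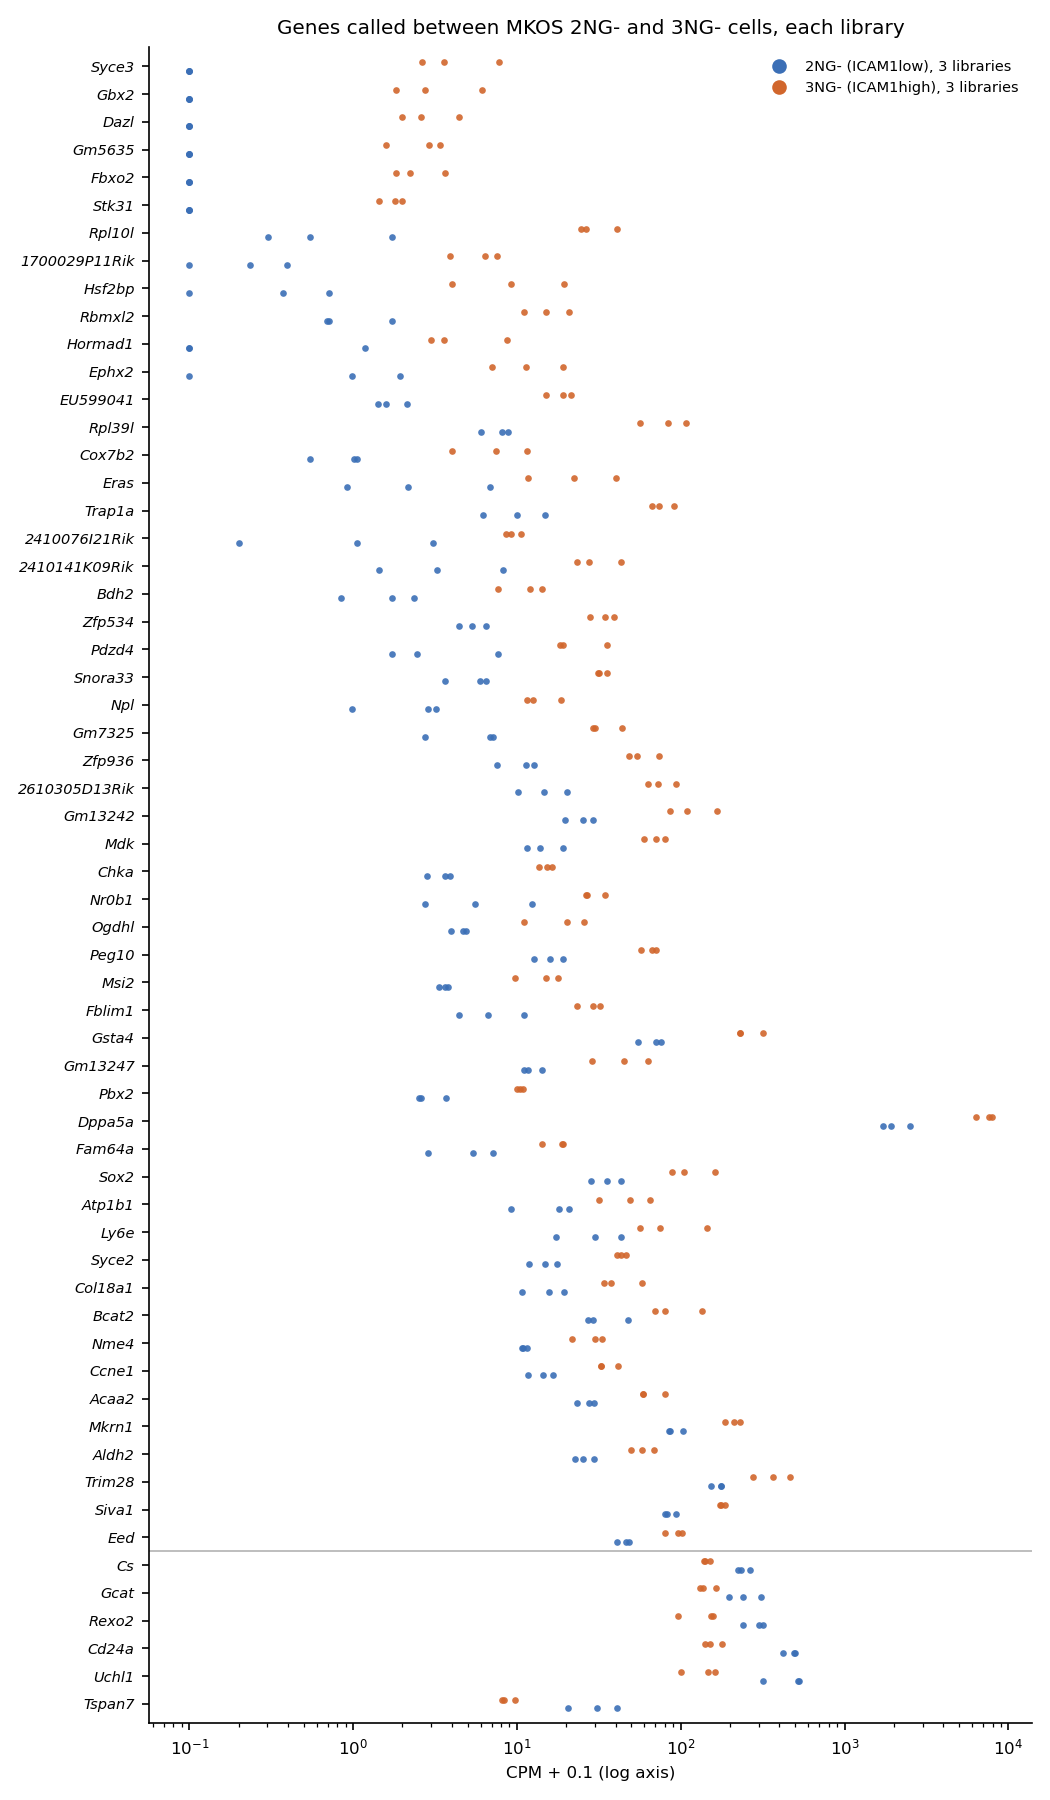
Each point is 1 library, placed by its CPM plus 0.1 on a log axis, for 60 of the 61 genes called between MKOS 2NG- cells (blue) and 3NG- cells (orange), with 54 that rose above the line and the 6 that fell below it. In each gene the 3 libraries of 1 population lie apart from those of the other, and 6 genes, Syce3, Gbx2, Dazl, Gm5635, Fbxo2, and Stk31, had no read in any 2NG- library.

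**Figure D2:**
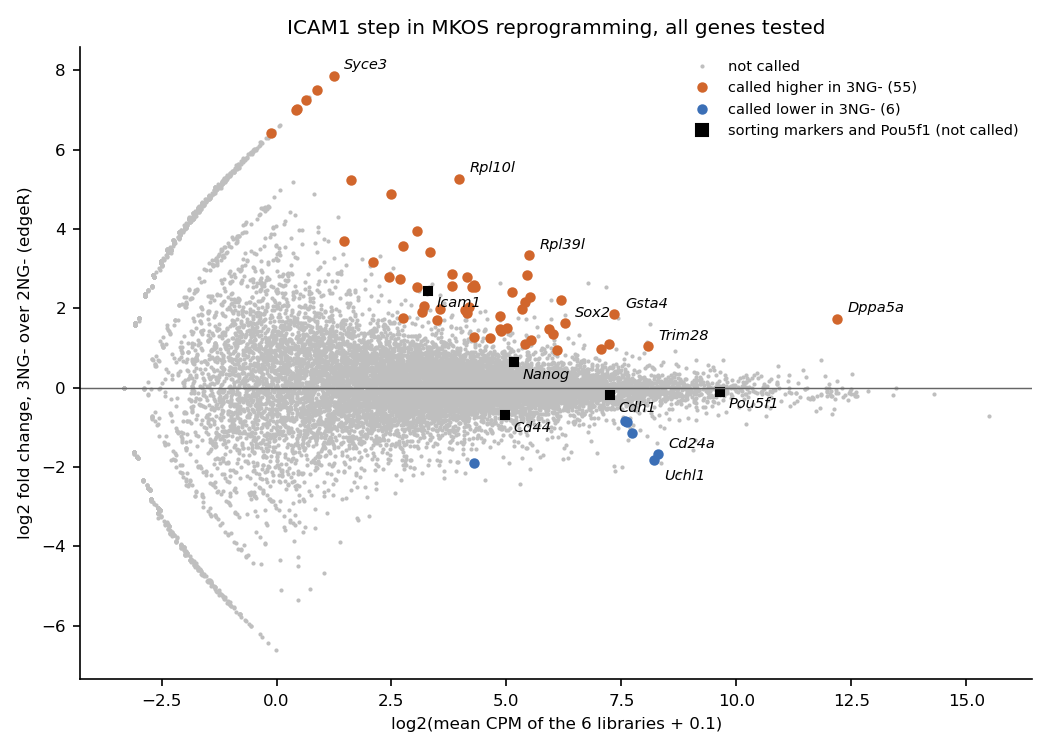
Each point is 1 of the 15630 genes tested, with the log2 of its mean CPM over the 6 libraries (plus 0.1) on the horizontal axis and the log2 fold change of 3NG- over 2NG- on the vertical axis. Called genes lie mostly above 0 and reach from Syce3, with no read in 2NG- cells, to Dppa5a, the most abundant of them, while Cd44, Cdh1, Nanog, and Pou5f1 lie near the bulk of the genes.

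Among the reprogramming factors, Sox2 alone rose. Sox2 had 43.4, 28.0 and 35.5 CPM in 2NG- cells and 87.8, 104 and 162 CPM in 3NG- cells (log2 fold change 1.63 ± 0.37, FDR 0.0313), and 329.6 CPM in ESCs. Pou5f1, which encodes Oct4, was already near its ESC level in 2NG- cells, with 857, 796 and 765 CPM, and had 738, 756 and 895 CPM in 3NG- cells and 988 CPM in ESCs. Klf4 had 28.7, 32.0 and 30.2 CPM against 27.0, 34.8 and 38.8 CPM, and Myc 42.2, 47.2 and 41.9 CPM against 32.2, 41.6 and 41.9 CPM. The log2 fold changes of these other factors were between -0.27 and 0.06, none called. Whether reads of the cassette were counted on these rows was not tested.

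Most pluripotency genes had a positive log2 fold change, and a few of them passed the test. Of 16 naive pluripotency transcription factors, 15 had a positive log2 fold change, 2 were called, and the median was 0.92, beside 0 over all genes tested. Of all 15630 genes tested, 7765 had a positive value and 0.352% were called higher. Nr0b1, which encodes the orphan receptor DAX1, was 1 of these, with 2.65, 5.46 and 12.2 CPM in 2NG- cells and 26.4, 34.5 and 26.6 CPM in 3NG- cells (log2 fold change 2.03 ± 0.44, FDR 0.0189). All 6 libraries were below its ESC mean of 97.1 CPM. With the replicate block, 4 of the 16 were called, since Klf5 (5.30, 8.27 and 6.50 against 22.2, 26.0 and 14.2 CPM, blocked FDR 0.0329) and Tcea3 (11.4, 16.7 and 28.5 against 54.1, 64.4 and 81.9 CPM, blocked FDR 0.0271) were added. Esrrb, a main partner of the core network, had 49.0, 53.7 and 69.4 CPM against 79.5, 75.1 and 119 CPM and was not called, though its libraries did not overlap. Sall1 alone had a negative value, of -0.18.

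Of 27 other pluripotency genes, 22 had a positive log2 fold change, 2 were called, and the median was 0.89. Dppa5a, which encodes an RNA-binding protein of pluripotent cells, was the most abundant, with 1719.6, 1926 and 2513 CPM in 2NG- cells and 6353, 7594 and 7928 CPM in 3NG- cells (log2 fold change 1.74 ± 0.42, FDR 0.0479). Eras, a Ras-like gene expressed in ESCs, had 0.816, 2.07 and 6.77 CPM and 11.5, 22.4 and 40.2 CPM (FDR 0.0344), and replicate 3 was the highest in both populations. In bulk samples, a change in the share of cells that express a gene and a change in RNA per cell cannot be told apart. With the block, 8 of the 27 were called. The added genes were Tdgf1, the Nodal co-receptor (blocked log2 fold change 1.64, FDR 0.00975), Dppa2 and Dppa4, which encode a pair of chromatin proteins (1.80 and 1.93), the DNA methylation genes Dnmt3b and Dnmt3l (1.94 and 2.09), and Tet1, which encodes an enzyme that oxidizes 5-methylcytosine (1.72). Without the block their FDR lay between 0.0528 and 0.163. Lin28a, an RNA-binding repressor of let-7, was not called, with 37.9, 56.1 and 21.4 CPM against 31.2, 32.4 and 28.7 CPM, nor was Tcl1, an AKT co-activator, with 90.5, 113 and 138 CPM against 69.7, 60.9 and 66.8 CPM (FDR 0.75). Klf5, Tcea3, Esrrb, Sall1, Lin28a, Tcl1, and the genes called with the block alone were named after their values were seen.

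**Figure D3:**
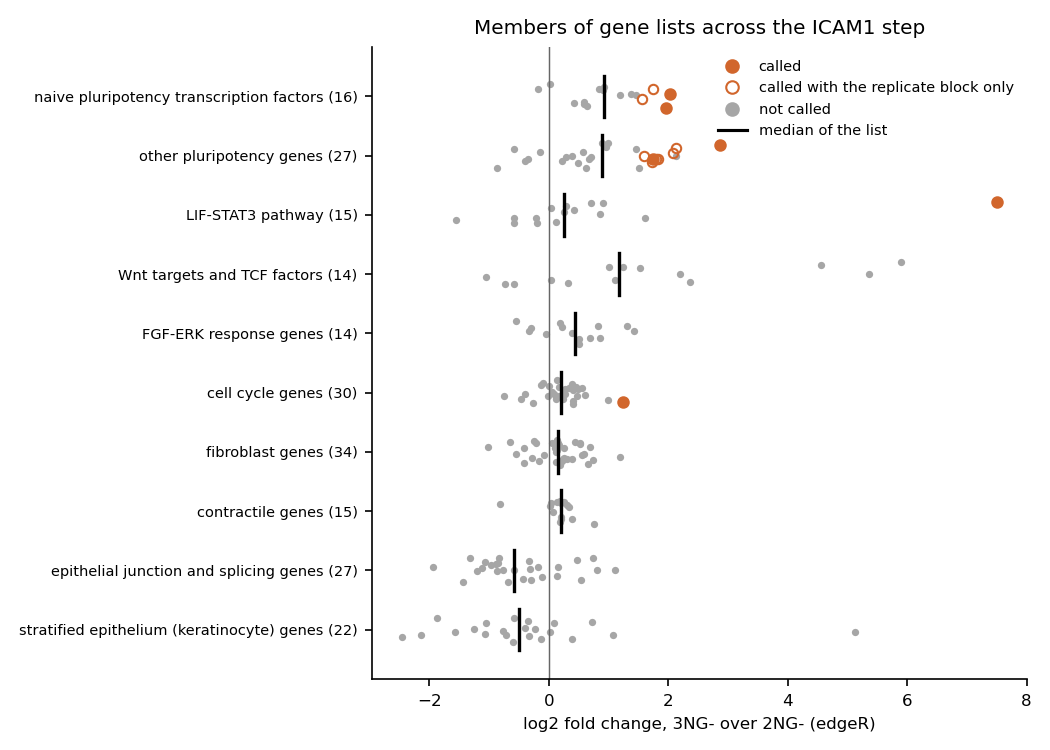
Each point is a tested member of a gene list, placed by its log2 fold change of 3NG- over 2NG- cells, with the number tested in parentheses and the median as a black bar. Filled orange points were called and open ones were called with the replicate block alone, and the medians run from 1.18 for Wnt targets to -0.58 for epithelial junction and splicing genes.

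Several of the genes with the largest changes were silent or nearly so in 2NG- cells, and a ranking by fold change favors such genes. Rpl10l, an intronless copy of a ribosomal protein gene that is used in testis, had 0.204, 0.443 and 1.63 CPM in 2NG- cells and 24.5, 26.3 and 40.5 CPM in 3NG- cells, a ratio of the means of 40.2 (log2 fold change 5.27 ± 0.53, FDR 3.19e-08). It had 0.162 CPM in MKOS MEFs, 282 in 3NG+ cells, and 49.8 in ESCs. Rpl39l, another ribosomal protein gene copy, had 8.06, 8.71 and 5.96 CPM against 56.5, 83.6 and 107 CPM (log2 fold change 3.35 ± 0.38, FDR 3.64e-07). Rbmxl2, which encodes the germ-cell RNA-binding protein hnRNP G-T, had 0.612, 0.590 and 1.63 CPM against 10.9, 15.0 and 20.6 CPM. Hsf2bp, whose product acts in meiotic recombination, had 0.612, 0 and 0.271 CPM against 9.16, 3.93 and 19.2 CPM, with replicate 2 the lowest in both populations. In each of these 4 genes the lowest 3NG- library was above the highest 2NG- library.

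Genes of the germline list were likewise near 0 in 2NG- cells. Of 13 genes tested, 2 rose, none fell, and 11 had a positive log2 fold change, with a median of 3.81. 5 of the 13 had no read in 2NG- cells and reads in 3NG- cells, and with each of them at its lower bound (0 where 3NG- cells were under the floor of 3 reads) the median was 2.41. Dazl, which encodes an RNA-binding protein of germ cells, had no read in any 2NG- library and 4.36, 1.89 and 2.51 CPM in 3NG- cells, at least 24.2-fold higher when set against 3 reads over the 3 2NG- libraries (FDR 0.0237). Stk31, which encodes a Tudor domain kinase of germ cells, also had no read in 2NG- cells and 1.34, 1.89 and 1.71 CPM in 3NG- cells, at least 12.9-fold higher (FDR 0.00881). Sycp3, a component of the synaptonemal complex that joins chromosomes in meiosis, had 1.53, 0.443 and 1.49 CPM against 8.82, 9.60 and 12.4 CPM and was not called (FDR 0.0982). The summed level of the list was 2.21 to 5.56 CPM in 2NG- cells and 21.2 to 33.1 CPM in 3NG- cells, against 206 to 283 CPM in ESCs. Taf7l and Asz1 had no read in the 6 libraries.

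Some called genes that were not on the list are also known from meiosis or testis, and they were picked after their values were seen, with no count or test of such a group. Syce3, a central element protein of the synaptonemal complex, had no read in 2NG- cells and 3.46, 2.52 and 7.65 CPM in 3NG- cells, at least 37.8-fold higher (FDR 0.0031). Syce2, its partner, had 14.7, 17.6 and 11.8 CPM against 46.3, 40.8 and 43.2 CPM (FDR 0.0218). Hormad1, a meiotic chromosome axis protein, had 0, 0 and 1.08 CPM against 2.90, 3.46 and 8.57 CPM (FDR 0.0246). 2410076I21Rik, now named Rec114 after a factor for meiotic DNA breaks, had 0.102, 2.95 and 0.948 CPM against 8.49, 9.13 and 10.5 CPM (FDR 0.013). Cox7b2, a testis form of a cytochrome c oxidase subunit, had 0.918, 0.443 and 0.948 CPM against 7.37, 3.93 and 11.4 CPM (FDR 0.0326). Levels of these genes in 3NG- cells were low, and 10 of the 55 genes that rose had a mean below 10 CPM there, beside 8138 of the 15630 genes tested.

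The promoters of 3 of these genes are shown because CG dinucleotides, the sites of DNA methylation, differ in number between them, and methylation was not measured here. The bases are the 250 before the start in RefSeq (GRCm38.p6), 5′ to 3′ on the strand of the gene, with each CG in capitals. They lie at chr12:66284402-66284651 on the minus strand for Rpl10l, chr17:50293621-50293870 on the minus strand for Dazl, and chr6:49395289-49395538 on the plus strand for Stk31.
Rpl10l: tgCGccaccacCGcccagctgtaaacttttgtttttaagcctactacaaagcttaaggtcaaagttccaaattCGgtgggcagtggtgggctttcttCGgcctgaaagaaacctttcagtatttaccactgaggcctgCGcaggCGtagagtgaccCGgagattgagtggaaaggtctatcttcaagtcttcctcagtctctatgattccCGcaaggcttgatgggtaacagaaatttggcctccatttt
Dazl: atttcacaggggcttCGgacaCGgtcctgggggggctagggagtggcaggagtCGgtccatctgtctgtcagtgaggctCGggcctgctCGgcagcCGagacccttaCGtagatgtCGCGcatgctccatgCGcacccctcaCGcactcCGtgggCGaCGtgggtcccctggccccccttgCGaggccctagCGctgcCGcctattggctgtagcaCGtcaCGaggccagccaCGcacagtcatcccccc
Stk31: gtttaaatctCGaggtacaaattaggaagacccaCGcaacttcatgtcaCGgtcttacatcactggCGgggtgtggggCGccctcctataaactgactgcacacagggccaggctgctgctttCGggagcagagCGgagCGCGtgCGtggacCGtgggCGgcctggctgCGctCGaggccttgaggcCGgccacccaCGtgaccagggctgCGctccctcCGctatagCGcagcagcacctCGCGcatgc
Dazl and Stk31 held 20 and 21 CG dinucleotides in this window, and Rpl10l held 8, beside a median of 15 over the 12011 promoters of tested genes. Stk31 has 2 starts in the table, and 1 of them is shown.

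Several zinc finger genes rose, and so did Trim28. Trim28, which encodes the KAP1 corepressor of KRAB zinc finger proteins, had 152, 176 and 176 CPM in 2NG- cells and 277, 364 and 467 CPM in 3NG- cells (log2 fold change 1.05 ± 0.22, FDR 0.0132). Zfp534 had 5.20, 6.35 and 4.34 CPM against 27.7, 38.9 and 34.6 CPM (FDR 0.00243), and 3 further genes of chromosome 4 that RefSeq names Zfp980, Zfp981, and Zfp979 rose with it. These were Gm13242 (19.5, 25.2 and 28.9 against 85.9, 109.5 and 167 CPM), Gm13247 (11.0, 14.2 and 11.5 against 28.8, 44.9 and 63.4 CPM), and 2610305D13Rik (10.0, 20.2 and 14.5 against 62.9, 72.4 and 93.5 CPM). Their reads cannot be told apart with certainty, since 4.82%, 2.98%, 13.1%, and 9.45% of the reads on these 4 rows were unique to 1 position. Zfp936 on chromosome 7 had 7.45, 11.2 and 12.6 CPM against 53.7, 48.3 and 73.6 CPM, with 22.7% unique reads. EU599041, which lies on the same chromosome, had 1.33, 1.48 and 2.03 CPM against 21.2, 15.0 and 19.0 CPM with 91.5% unique reads. Of the 55 genes that rose, 6 had under 50% unique reads (10.9%, beside 5.66% of all genes tested). Eed, a core subunit of Polycomb repressive complex 2, had 40.8, 46.2 and 48 CPM against 79.7, 96.6 and 101 CPM (FDR 0.041). Trim28, Eed, and the zinc finger genes other than Zfp534 were named after their values were seen.

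Genes of metabolism and growth were also called. Gsta4, a glutathione transferase that detoxifies lipid peroxidation products, had 54.8, 70.7 and 75.6 CPM in 2NG- cells and 229, 228 and 319 CPM in 3NG- cells (log2 fold change 1.86 ± 0.27, FDR 0.000153). Ephx2, an epoxide hydrolase, had 1.84, 0.886 and 0 CPM against 6.92, 11.3 and 19.1 CPM (FDR 0.0385), Bdh2, a short-chain dehydrogenase, 2.24, 0.738 and 1.63 CPM against 11.8, 14.2 and 7.54 CPM (FDR 0.0418), and Npl, a lyase that splits sialic acid, 2.75, 0.886 and 3.12 CPM against 12.5, 11.5 and 18.4 CPM (FDR 0.0322). Ccne1, which encodes cyclin E1 of the entry into S phase, was the 1 called gene of 30 cell cycle genes, with 11.5, 16.4 and 14.4 CPM against 32.3, 41.1 and 32.7 CPM (log2 fold change 1.25 ± 0.26, FDR 0.0132). 22 of the 30 had a positive value, and the median of the list was 0.20. Gbx2, a target of LIF and STAT3 in ESCs, had no read in 2NG- cells and 6.03, 1.73 and 2.63 CPM in 3NG- cells (at least 29.2-fold higher, FDR 0.0112). Peg10, a paternally expressed gene derived from a retrotransposon and a member of the trophoblast list, had 12.5, 18.9 and 15.7 CPM against 57.4, 71.0 and 67.0 CPM (log2 fold change 1.97 ± 0.41, FDR 0.0134). The 3NG+ libraries had 24.2, 10.5 and 20.8 CPM, and ESCs had 52.3 CPM on average. Peg10 was the 1 called gene of 12 trophoblast markers, of which 6 had a positive and 5 a negative log2 fold change. The median of that list was 0.05.

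The remaining genes of largest change were Trap1a (6.12, 9.89 and 14.8 against 66.7, 73.8 and 90.6 CPM), a tumor rejection antigen gene active in placenta and germ cells, Pdzd4 (2.35, 1.62 and 7.59 against 18.3, 18.9 and 35.3 CPM), 2410141K09Rik (3.16, 1.33 and 8.13 against 23.0, 27.5 and 42.8 CPM), the small nucleolar RNA Snora33 (5.81, 3.54 and 6.37 against 31.7, 31.2 and 35.5 CPM), and Gm7325 (7.04, 2.66 and 6.77 against 30.0, 29.0 and 43.6 CPM). Gm7325 is now named Mymx, after its role in myoblast fusion. Of the 55 genes that rose, 6 are on chromosome X (10.9%), Trap1a, Pdzd4, Nr0b1, Eras, and Gm5635 among them, beside 592 of all genes tested (3.79%). Tspan7, which fell, is also on it. Of the reads on Gm5635, a ferritin-like gene with close copies, 0.669% were unique, so its reads may belong to a copy.

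The 6 genes that fell were all expressed well above the floor in 2NG- cells. Uchl1, a ubiquitin hydrolase best known from neurons, had 526, 520.5 and 318 CPM in 2NG- cells and 162, 146 and 99.7 CPM in 3NG- cells (log2 fold change -1.81 ± 0.37, FDR 0.013). Cd24a, a surface glycoprotein of epithelial progenitors, had 423, 497 and 489 CPM against 140.5, 150.3 and 178 CPM (-1.67 ± 0.37, FDR 0.0242). MKOS MEFs had 23.1 and 103 CPM of these genes, and of the 6 MKOS populations and reference cells named above, 2NG- cells had the highest mean of both. Tspan7, a tetraspanin, had 30.5, 40.9 and 20.5 CPM against 8.26, 8.03 and 9.59 CPM (FDR 0.0323). Rexo2, an oligoribonuclease of mitochondria, had 319, 300.1 and 239 CPM against 154, 157 and 96.3 CPM (FDR 0.0385). Cs, citrate synthase, had 233, 223 and 266 CPM against 141, 139 and 149.9 CPM (FDR 0.0447), and Gcat, a mitochondrial enzyme of threonine breakdown, had 196, 239 and 309.7 CPM against 130.1, 137 and 164 CPM (FDR 0.0479). Rexo2, Cs, and Gcat encode mitochondrial proteins from nuclear genes, and the share of reads on mitochondrial genes was also lower in 3NG- libraries, as given above, whose part in these results was not tested. Between 0 and 3 genes were called lower when 1 library was left out.

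**Figure D4:**
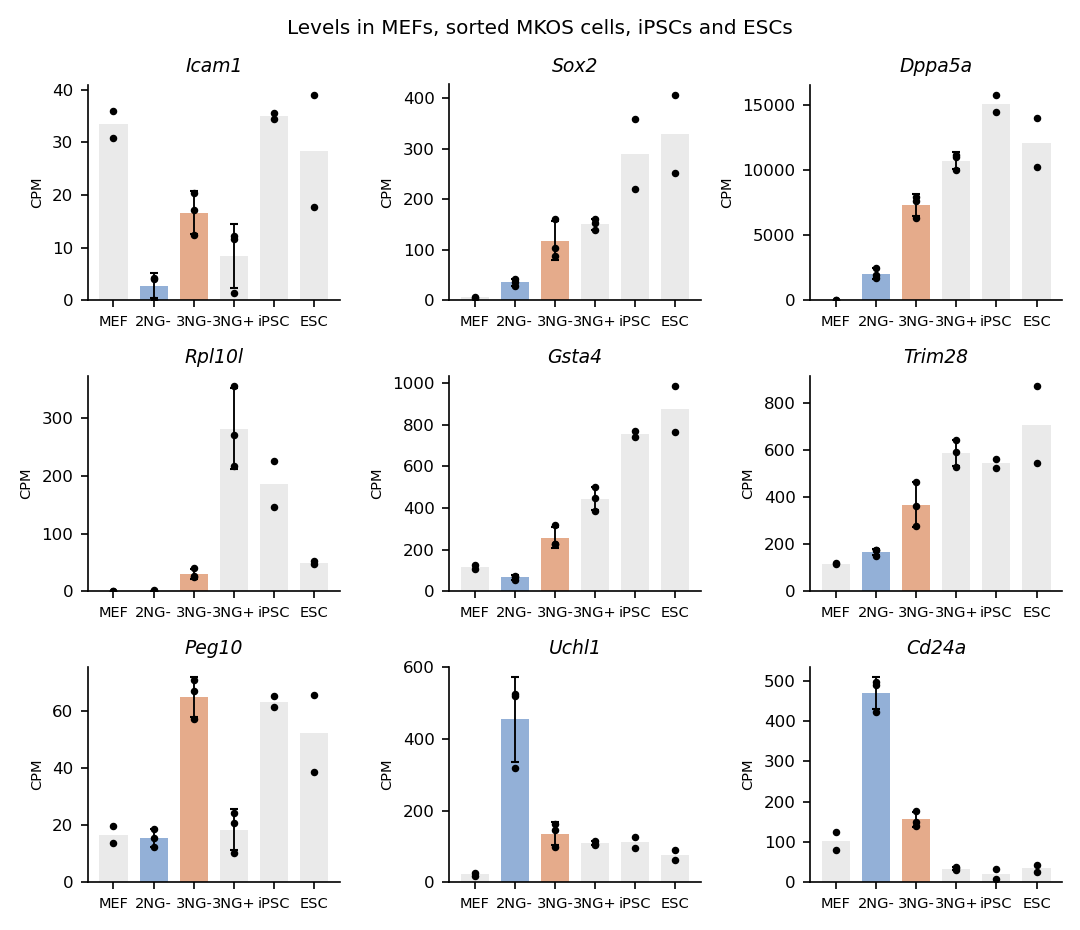
Bars show the mean CPM of 9 genes in MKOS MEFs, 2NG- cells, 3NG- cells, 3NG+ cells, MKOS iPSCs without doxycycline, and TNG MKOS ESCs, points show the libraries, and error bars show the SD where there are 3 libraries. Uchl1 and Cd24a peak in 2NG- cells, Peg10 is higher in 3NG- cells than in 2NG- or 3NG+ cells, and Sox2, Dppa5a, Gsta4, and Trim28 have higher means in 3NG- than in 2NG- cells and higher means still in ESCs.

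Most epithelial genes had a negative log2 fold change, and none passed the test. Of 27 epithelial junction and splicing genes, 20 had a negative value and the median was -0.58, and 3 had an unadjusted p under 0.05, all negative. Of all 15630 genes tested, 7336 had a negative value. Krt8, a simple epithelial keratin, had 846, 915 and 572 CPM in 2NG- cells and 379, 327 and 274 CPM in 3NG- cells (log2 fold change -1.33 ± 0.46, FDR 0.336), against 3.81 CPM in ESCs. Spint2, an inhibitor of membrane proteases, had 150.5, 184 and 199 CPM against 128, 153 and 168 CPM. Ap1m2, an epithelial sorting adaptor, had 121, 124 and 128 CPM against 95.0, 82.2 and 86.9 CPM. The summed level of the list was 1632 to 1939 CPM in 2NG- cells and 1083 to 1216 CPM in 3NG- cells, and was 341 to 391 CPM in ESCs. Of 22 keratinocyte genes tested, 16 had a negative value, none was called or had an unadjusted p under 0.05, and their median was -0.49. Krt17, the most abundant, had 1189.9, 816 and 355 CPM against 402, 247 and 187 CPM, with ranges that overlapped and the lowest value in replicate 3 of both populations. Sfn, which encodes 14-3-3 sigma, had 376, 414 and 303 CPM against 295, 357 and 223 CPM.

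No gene of the fibroblast and contractile lists was called. Of 34 fibroblast genes, 24 had a positive log2 fold change, 1 had an unadjusted p under 0.05, and the median was 0.16. Of all 15630 genes tested, 7765 had a positive value and 7.41% had an unadjusted p under 0.05. The list summed to 2296 to 3891 CPM in 2NG- cells and 2667 to 4422 CPM in 3NG- cells, well under the 15888 to 16231 CPM of MKOS MEFs. Of 15 contractile genes, 14 had a positive value, and the median was 0.19. The 1 gene with an unadjusted p under 0.05 was Tagln2, the most abundant, which was lower in 3NG- cells. Tagln2 had 607, 845 and 638 CPM in 2NG- cells against 485, 404 and 363 CPM (FDR 0.521). Acta2, smooth muscle actin, varied more between replicates than between gates. It had 761, 271 and 97.3 CPM in 2NG- cells and 787, 343 and 81.4 CPM in 3NG- cells. Macrophage markers had summed levels of 165 to 1663 CPM in 2NG- cells and 159.7 to 1988 CPM in 3NG- cells, and none of the 10 was called or had an unadjusted p under 0.05. All 10 had reads, and their part in the results was not tested. Stmn2, a microtubule regulator on the neural list, had 1636, 1678 and 1230.2 CPM against 1077, 919.5 and 524 CPM and was not called (FDR 0.336). The neural markers summed to 1326 to 1911 CPM in 2NG- cells and 592 to 1178 CPM in 3NG- cells, and Stmn2 was most of this sum. Neurog2 had no read, and none of the 9 was called, while 3 had a positive and 5 a negative log2 fold change. Of the 3 with an unadjusted p under 0.05, 1 was higher and 2 were lower. The part of these markers in the results was not tested. Of the endothelial markers, Cdh5 and Emcn had no read, and no endothelial, adipocyte, muscle, or primitive endoderm marker was called. At an unadjusted p under 0.05 there were 0, 1, 0, and 3 of them in this order. Foxa2, Sox17, and Ttr of the primitive endoderm markers had no read, while the sum of these markers was 99.6 to 169 CPM in 2NG- cells and 225 to 248 CPM in 3NG- cells. Apoe, the lipid carrier that was the most abundant of them, had 48.8, 55.8 and 52.3 CPM against 121, 130.5 and 167 CPM (FDR 0.312). The list did not move as 1, since 5 of the 14 tested had a positive and 6 a negative log2 fold change. Of the 3 with an unadjusted p under 0.05, 1 was higher and 2 were lower. Lama1, also on this list, had 16.9, 29.8 and 13.7 CPM against 12.3, 11.5 and 10.3 CPM (FDR 0.843). Of 6 genes of 2-cell-like cells, none was called, and Zscan4c, Zscan4d, Zscan4f, and Tcstv3 had no read in the 6 libraries.

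Signaling lists held few called genes. Over all 15630 genes tested, 7765 were positive, 0.39% were called, and 7.41% had an unadjusted p under 0.05. Of 24 NF-kB factors and targets, which include regulators of Icam1 in inflamed tissue, 12 had a positive and 12 a negative log2 fold change, none was called, 2 had an unadjusted p under 0.05, and the median was 0.04. Of 16 genes of ICAM1 receptors, relatives, and membrane linkers, 9 were positive and none was called, while 4 had an unadjusted p under 0.05. The linker gene Msn had 80.3, 92.7 and 32.7 CPM against 132, 119 and 95.6 CPM (FDR 0.645), and its relative Ezr had 109, 127 and 106 CPM against 81.7, 75.4 and 106 CPM (FDR 0.672). In both genes the libraries of the gates lay just apart, and neither passed the test over all genes. In the LIF-STAT3 list, Gbx2 was the 1 called gene of 15, and the median was 0.26. Socs3, the feedback inhibitor of STAT3, had 16.7, 20.7 and 16.4 CPM against 35.1, 43.9 and 23.3 CPM (FDR 0.848). Of 14 Wnt targets and TCF factors, 11 were positive and none was called, 6 had an unadjusted p under 0.05, all positive, and the median was 1.18. The list summed to 39.3 to 44.5 CPM in 2NG- cells and 58.6 to 66.5 CPM in 3NG- cells, so it rested on few reads per gene. Of 21 genes of the TGF-beta, Nodal, and BMP pathways, 16 were positive and none was called, while 2 had an unadjusted p under 0.05. Bmp4, a BMP ligand, had 15.1, 4.43 and 11.9 CPM against 40.9, 39.5 and 31.8 CPM (FDR 0.197). Of 14 FGF-ERK response genes, 10 were positive and none was called. Dusp6, an ERK phosphatase and the 1 gene of this list at an unadjusted p under 0.05, had 31.0, 34.5 and 20.3 CPM against 66.6, 97.7 and 59.7 CPM (FDR 0.0746). Of 24 interferon-stimulated genes tested, 17 were positive and none was called, while 3 had an unadjusted p under 0.05. Ifitm1 had 13.2, 15.6 and 55.6 CPM against 92.0, 86.9 and 389.9 CPM and was called with the block (FDR 0.00391). Of 11 heat shock and immediate early genes, 13 genes of the unfolded protein and amino acid response, and 21 of hypoxia and glycolysis, none was called and 1 each had an unadjusted p under 0.05, with medians of -0.26, -0.02, and -0.04. Of the lists in which edgeR called no gene, DESeq2 called Dusp6 and, among the sorting markers, Icam1. Socs3, Bmp4, and Ifitm1 were named after their values were seen.

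Over the transcriptome as a whole, the ranges of the gates overlapped. On a line from MKOS MEFs at 0 to TNG MKOS ESCs at 1, the 2NG- libraries lay at 0.581 ± 0.0493 and the 3NG- libraries at 0.618 ± 0.0550 (SD, n = 3 each). The difference of 0.0365 was smaller than the SD of either population (exact two-sided permutation test, p = 0.4, where 0.1 is the smallest p that 3 against 3 libraries can give). With libraries paired by replicate number, which was added after the data were seen, 3NG- lay above 2NG- in 3 of 3 pairs, by 0.0318, 0.0323, and 0.0454 (exact two-sided permutation test of the paired differences, p = 0.25, the smallest that 3 pairs can give). The called genes lay mostly in the direction of ESCs. Of the 55 that rose, 43 were also called higher in TNG MKOS ESCs than in MKOS MEFs, a comparison with no library in common with this one. That is 78.2% of the 55 and 1.57% of the 2743 genes called higher in ESCs, which were 17.5% of all genes tested, where 33.3% were called in either direction. Acaa2 and Ly6e were called lower in ESCs, and 10 of the 55 were not called. Of the 6 that fell, Uchl1 and Gcat were called higher and Cd24a lower in ESCs.

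The same gates were sorted from E-CAD+ cells of OKMS reprogramming, in which the factors stand in another order in a cassette at the same locus and Klf4 is a short form that lacks the N-terminal end of the long form. Order and Klf4 form cannot be told apart in the comparison of the cassettes. There the ICAM1 step called 6 genes (0.0384%), namely Icam1, Fblim1, Gm7325, Jam2, Il1rn, and Fbn2. Reads on transcripts were 3102135 to 14174725 in these OKMS libraries, against 6353439 to 9802465 in MKOS. On the line from MEFs to ESCs, replicate 3 of OKMS 3NG- cells lay at 0.732, against 0.588 and 0.587 for replicates 1 and 2. The part of depth and of this library in the number called was not tested. Icam1 had 0, 0 and 0.141 CPM in OKMS 2NG- cells and 12.9, 23.8 and 5.18 CPM in OKMS 3NG- cells (log2 fold change 7.01, FDR 0.000189). The difference between the MKOS and OKMS steps of Icam1 was not called (-4.57, FDR 0.451). Fblim1, a filamin-binding adaptor of cell adhesions, and Gm7325 were the 2 genes called in both cassettes. Fblim1 had 6.53, 10.9 and 4.34 CPM against 23.2, 32.0 and 29.1 CPM in MKOS cells, and 2.39, 4.84 and 5.78 CPM against 16.5, 22.4 and 23.5 CPM in OKMS cells. Of the 55 genes that rose in MKOS, 39 had a positive log2 fold change in OKMS, where 7866 of all genes tested had one, and their median there was 0.40, against 2.21 in MKOS. Since the 55 were chosen by their MKOS value, the lower OKMS median is a description. The difference between the steps was called for 3 of the 15630 genes (0.0192%), and 832 genes had an unadjusted p under 0.05 (5.32%).

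Gsta4 was among these 3, and its levels in OKMS were high on both sides of the gate. It had 941, 736 and 699.8 CPM in OKMS 2NG- cells and 803, 697 and 646 CPM in OKMS 3NG- cells, all above the MKOS 3NG- libraries, and the MKOS step exceeded the OKMS step by 2.07 ± 0.38 on the log2 scale (FDR 0.0385). Rpl39l had 9.54, 29.3 and 19.4 CPM against 37.4, 29.8 and 29.9 CPM in OKMS, where the closest libraries of the gates were nearly level, and its MKOS step was larger by 2.63 ± 0.50 (FDR 0.0385). Syce3 had 0.170, 0 and 5.15 CPM against 1.25, 1.43 and 1.18 CPM in OKMS (difference 8.70 ± 1.66, FDR 0.0385), and without replicate 3 of OKMS 2NG- cells the difference was 4.51 and the call was lost (FDR 0.831). None of the 3 calls held in every setting, since leaving out any of 5 of the 12 libraries left no gene called. Rpl10l had 0.511, 0 and 0.988 CPM against 3.93, 1.43 and 5.89 CPM, and its difference between the steps was not called (FDR 0.582).

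**Figure D5:**
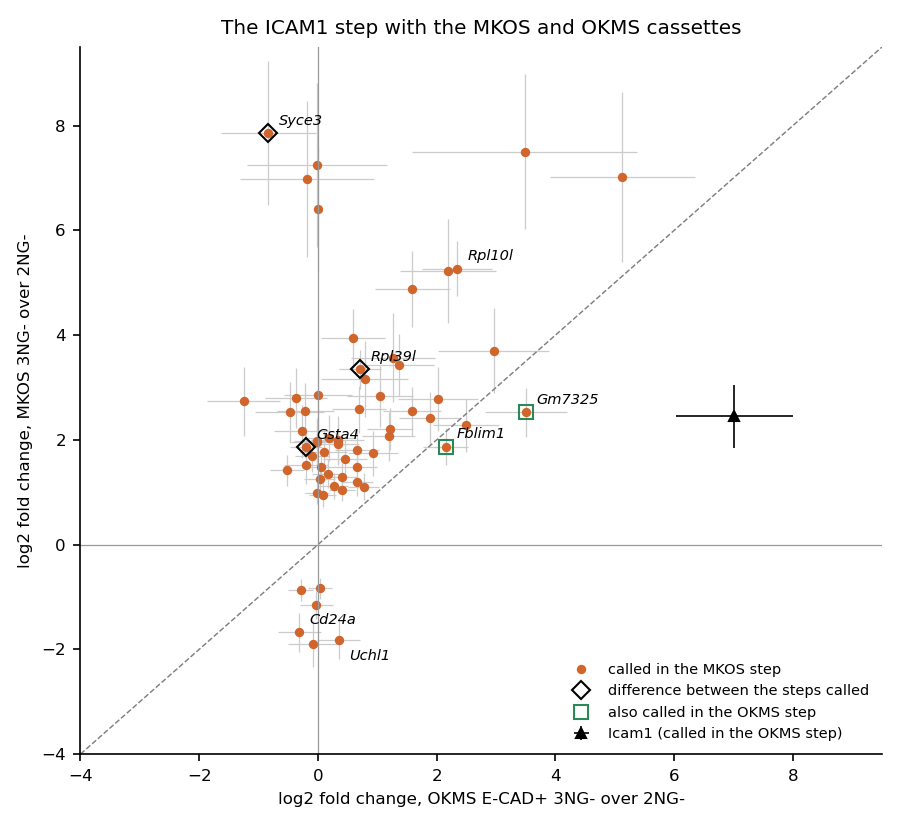
Each point is a gene called in the MKOS step, with its log2 fold change of 3NG- over 2NG- in OKMS E-CAD+ cells on the horizontal axis and in MKOS cells on the vertical axis, error bars of 1 SE, and a dashed line where both are equal. Diamonds mark Gsta4, Rpl39l, and Syce3, whose steps differed, squares mark Fblim1 and Gm7325, called in both cassettes, and the triangle is Icam1, at 7.01 in OKMS and 2.45 in MKOS.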

How the data were processed

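Read counts per transcript model were deposited by the authors for 48 libraries in 1 table, made by STRT, with reads aligned by Bowtie 0.12.7 per the labels. The labels name mm10 and the study's methods an earlier mouse build, so genes are given by chromosome alone. The table held 24264 transcripts, 1554 repeats, and 104 spike-ins. Only transcript rows were used, and the counts were not altered. Unique-read shares came from the same table's own column.

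Groups were taken from the labels. edgeR 4.0.16 (R 4.3.3) was used with TMM scaling, its expression filter by group, 1 model of 20 groups over 48 libraries, the quasi-likelihood F-test, and Benjamini-Hochberg adjustment over the 15630 genes kept, with a gene called at an FDR of at most 0.05. CPM is the count divided by the transcript total of its library. An SE is the size of the log2 fold change divided by the square root of its F statistic. At this depth, 3 reads stood for 0.306 to 0.472 CPM, and such floors cover counting error only. The step in MKOS was compared with that in OKMS E-CAD+ cells by an interaction contrast. The position of a library between MKOS MEFs and ESCs was its projection on the line between their mean log2 CPM (prior count 2). The difference between the gates was tested by an exact permutation test in R. Scripts were tested on simulated data, in which all genes had the same spread. There edgeR called 0 of 114 genes changed 2-fold between the gates and 31 of 86 changed 4-fold. For the difference between the steps it called 2 of 86 changed 4-fold. A gene that was not called may therefore have changed.

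The counts of replicates of a group differed beyond counting noise (chi-square per degree of freedom 13.9 to 31.6), so no set of counts was a copy of another. This does not show that they came from separate cultures. Libraries of equal replicate number deviated together from their group means (r = 0.238, 0.104, and 0.352, against -0.263 to 0.0707 for unequal numbers), so the number was treated as a pairing in an alternative fit. That pairing comes from the data and not from the labels. Other alternatives were DESeq2 1.42.0, its size factors in edgeR, no filter, fewer libraries in the fit, and leaving out libraries.

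The comparison and the gene lists were chosen with earlier results of these data known. Genes were named by a rule: sorting markers and factors, the 15 largest called changes in each direction with a mean of at least 10 CPM and libraries that did not overlap, called list members, called interactions, and, for lists without a call, up to 3 of the most abundant members. Any other gene was chosen after its values were seen. RefSeq symbols were matched for the 61 called genes, 54 by symbol and 7 by synonym. 1 called gene that the rule names is not reported here.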

Additional observations from a re-analysis of the deposited data

Results flagged for a closer look

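3 genes had an ICAM1 step that differed between MKOS and OKMS E-CAD+ cells by the interaction test of edgeR. The log2 fold change of 3NG- over 2NG- cells in MKOS exceeded that in OKMS by 2.63 for Rpl39l, by 2.07 for Gsta4, and by 8.70 for Syce3, each at an FDR of 0.0385. In Gsta4 the OKMS libraries of both gates were above all MKOS libraries of these gates. In Syce3 the difference rested on replicate 3 of OKMS 2NG- cells, at 5.15 CPM, and on the absence of reads in MKOS 2NG- cells.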

How the results depend on the processing

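All 61 called genes kept the sign of their change in every alternative run. For all of them the libraries of the gates did not overlap, so leaving out libraries could hardly reverse a sign. DESeq2 called 108 genes, the fit without a filter 237, that on the 6 libraries alone 122 (41 of the 61 among them), and that on the 24 sorted libraries 36, while size factors from DESeq2 in edgeR gave 61. Leaving out 1 library at a time gave 11 to 53 genes, the fewest without replicate 1 (11) or replicate 2 (14) of 2NG- cells and 40, 32, and 25 without replicate 3 of 2NG- cells and replicates 2 and 3 of 3NG- cells. Leaving out replicate 1, 2, or 3 of both populations gave 8, 9, and 12. For the difference between the MKOS and OKMS steps, with 3 genes called, DESeq2 called 14, no filter 103, and the compared libraries alone 1. Leaving out 1 library gave 0 to 11, with 11 without replicate 3 of OKMS 3NG- cells and 0 without replicate 1 or 2 of MKOS 2NG- cells, replicate 3 of MKOS 3NG- cells, or replicate 1 or 2 of OKMS 3NG- cells, and leaving out replicate 2 or 3 throughout gave 0 and 1. The causes were not tested. The difference in position between MEFs and ESCs stayed between 0.00875 and 0.0666 when 1 library was left out.

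With the replicate block, pairing libraries of equal number, 91 genes were called in MKOS in place of 61, and 9 in place of 3 for the difference between the steps. For the position between MEFs and ESCs, pairing kept the difference of 0.0365 (p = 0.25, exact permutation test, the smallest possible), an alternative added after the data were seen. The 30 genes added are those called with the block alone, and the block ended no call of the 61.

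Cells of a gate were pooled in each library, and replicate 3 of each population was the least like the others (r = 0.936 to 0.939 for log CPM across genes, against 0.951 to 0.956).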

Other observations

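Genes called with the replicate block alone included some that no paragraph above describes, and they were chosen after their values were seen. Upp1, a uridine phosphorylase, Rest, the repressor of neuronal genes, Ooep, a maternal-effect gene of oocytes, Rhox5, an X-linked homeobox gene, Gja1, which encodes connexin 43, and Tex19.1, a gene of germ and pluripotent cells, were called higher in 3NG- cells. Ooep had a mean of 21.1 CPM in 2NG- cells and 103 CPM in 3NG- cells (blocked log2 fold change 2.41, FDR 0.0122). Nmt2, an N-myristoyltransferase, was the 1 gene called lower with the block alone. Without the block none of these passed edgeR's test.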
